A study of Homo sapiens with 15 samples.

Results

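Interferon-stimulated effector genes encode the proteins with which a cell acts on an infection once interferon has been sensed, and 43 of them were followed here across 2 pancreatic cancer cell lines in which a glycosyltransferase had been knocked down. The rule picks the genes by symbol from a list of effectors, with no threshold on their values, and all 43 were found among the 25503 genes of the expression table. The list itself was chosen with earlier results of these data known. They were set in 7 groups by role, which covered ISG15 and its conjugation enzymes, effectors that act on RNA, nucleotides or translation, dynamin-like GTPases, ADP-ribosyltransferases with their partner DTX3L, TRIM ligases with nuclear-body and DNA-sensing proteins, membrane and secreted proteins, and the remainder.

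Type I and type III interferons bind receptors that activate the kinases JAK1 and TYK2, and the signal ends at a complex with IRF9 that binds the interferon-stimulated response element. Interferon gamma acts mainly through another DNA element, the gamma-activated site. Many of the genes are also expressed at a low level without infection, and some can be turned on by IRF3 or IRF1 without interferon. In tumour cells, standing expression of the set is often called an interferon signature.

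RNA sequencing had been run on 15 libraries of AsPC-1 and Capan-1, both human pancreatic ductal adenocarcinoma lines, 3 libraries to each of 5 groups. AsPC-1 cells had received an siRNA against B4GALT5 (siB4GALT5), an siRNA against B3GNT3 (siB3GNT3) or a control siRNA (siNC), and Capan-1 cells had received siB3GNT3 or siNC. The product of B4GALT5 adds galactose to glucosylceramide in the Golgi, that of B3GNT3 lengthens mucin-type O-glycans, and the title of the series asks what they do to MHC class I on tumour cells. Every library was from transfected cells, no time or dose of transfection is stated, and the labels do not say whether replicates were grown apart, so p-values here reflect library-to-library spread that may be technical. The 5 groups hold no rescue and no second siRNA group for either target. Effects of an siRNA itself and of the loss of its target therefore cannot be told apart. Values are FPKM (fragment counts scaled by transcript length and library size), which allow levels of different genes to be compared per length but carry no read counts. Absolute depth is therefore unknown, while the smallest values in each library place the relative depths between 0.949 and 1.03 of that of AsPC-1 siNC replicate 1.

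The targeted genes were checked first. B4GALT5 had 8.70, 8.49 and 8.03 FPKM in the siB4GALT5 libraries, against 38.7, 35.8 and 35.5 FPKM in the siNC libraries of AsPC-1. The other target, B3GNT3, was called higher with siB4GALT5, at a mean of 30.3 FPKM against 23.2 FPKM in siNC (log2 change 0.37 ± 0.07, limma adjusted p = 0.0019), where 34.1% of all genes tested were higher. B3GNT3 had 2.53, 2.5 and 24.2 FPKM in the AsPC-1 libraries labelled siB3GNT3, against 22.5, 23.8 and 23.3 FPKM in siNC. In Capan-1 it had 1.32, 1.67 and 1.84 FPKM in siB3GNT3 and 13.3, 13.2 and 13.7 FPKM in siNC. The library labelled AsPC-1 siB3GNT3 replicate 3 thus kept its target at the control level. Over the 43 genes its root mean square difference of log2(FPKM + 1) was 1.05 and 1.03 from replicates 1 and 2 of its own group, and 0.101 to 0.139 from the siNC libraries, which differed among themselves by 0.137 to 0.180. Results for siB3GNT3 in AsPC-1 are therefore given as labelled and without that library. Of 8 markers of pancreatic ductal epithelium, 8 reached a mean of 1 FPKM in both Capan-1 groups and 5 did in each AsPC-1 group, with KRT7, CDH1 and CEACAM6 below it in AsPC-1. Their sum was lower with siB3GNT3 in Capan-1, at 3110 to 3960 FPKM, against 4840 to 5080 FPKM in siNC, with KRT18, KRT19, KRT8, CEACAM6 and EPCAM called lower and CDH1 higher (limma, adjusted p under 0.05). In AsPC-1 it was 1940 to 1950 FPKM in siB4GALT5 and 1640 to 2050 FPKM in siB3GNT3, against 2020 to 2080 FPKM in siNC. With siB4GALT5 there, KRT8 (-0.52) and KRT19 (-0.47) were called lower, and KRT18 (0.52), EPCAM (0.52) and MUC1 (0.47) higher. With siB3GNT3 and replicate 3 left out, KRT19 (-0.91) and KRT8 (-0.44) were called lower, and EPCAM (0.50), MUC1 (0.36) and KRT18 (0.17) higher. None of these was called with siB3GNT3 in AsPC-1 as labelled. Leukocyte markers other than CD68 and CD14 summed to at most 0.294 FPKM in any library, so PTPRC, CD3E and ITGAM were at or near 0. With CD68 and CD14 the AsPC-1 sum was 48.5 to 51.6 FPKM in siB4GALT5, 43.3 to 52.4 FPKM in siB3GNT3 and 38.9 to 40.6 FPKM in siNC. In Capan-1 that sum was 175 to 217 FPKM in siB3GNT3 and 160 to 175 FPKM in siNC. CD68 was called higher with siB4GALT5 in AsPC-1 (log2 change 0.32, limma adjusted p = 0.0011). With siB3GNT3 there it was called higher without replicate 3 (0.38, limma adjusted p = 7.7e-05) and not as labelled (0.29, limma adjusted p = 0.251). Fibroblast and endothelial markers summed to at most 0.815 FPKM in AsPC-1, and in Capan-1 to 75 to 81.1 FPKM with siB3GNT3 and 49.0 to 55.3 FPKM with siNC, nearly all of it COL1A1. The part of these shifts in the epithelial markers, CD68 and COL1A1 in the results of either line was not tested. In such bulk libraries a change in the number of cells with a transcript and a change in RNA per cell cannot be told apart.

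The regulatory sequence that the genes are known for was read from their promoters, taken from RefSeq (GRCh38.p14) as 250 bases before to 50 bases after each annotated start. Of the 43 genes, 38 had an entry. The core of the interferon-stimulated response element, GAAA, any 2 bases and GAAA on either strand, was found in the windows of 25 of these 38 genes (65.8%), against 4.38% of the 27305 genes with a window. The core of the gamma-activated site, TTCNNNGAA on either strand, was found for 11 of 38 (28.9%), against 9.38% of all genes. Matches can overlap one another, and a match is a run of letters, not a measured binding site. The stretches below hold a match for 5 of the genes with the largest responses in AsPC-1, for 2 genes silent in AsPC-1 controls, and for 5 others named in the results, each in 30 bases that lie before the start, written in the gene's own direction with the matches in capitals.
ISG15: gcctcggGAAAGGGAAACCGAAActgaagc
RSAD2: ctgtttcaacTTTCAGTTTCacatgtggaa
HERC5: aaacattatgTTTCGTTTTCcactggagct
ISG20: taacaaactaGAAACTGAAAcagggtcggg
IFI44L: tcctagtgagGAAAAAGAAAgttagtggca
RTP4: gaaccgaacaccGAAACTGAAActgtttgt
EPSTI1: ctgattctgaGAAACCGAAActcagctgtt
BST2: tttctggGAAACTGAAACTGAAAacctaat
PARP9: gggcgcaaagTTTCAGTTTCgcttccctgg
PARP14: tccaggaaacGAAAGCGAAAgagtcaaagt
GBP1: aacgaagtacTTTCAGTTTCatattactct
DDX60: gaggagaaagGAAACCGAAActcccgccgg
In ISG15 (chr1:1013377-1013406, plus strand) and BST2 (chr19:17405738-17405767, minus strand) a pair of overlapping matches was found. RSAD2 (chr2:6877622-6877651, plus strand) and HERC5 (chr4:88457035-88457064, plus strand) carry the core on the opposite strand, which reads TTTC, any 2 bases and TTTC. The PARP9 stretch (chr3:122564322-122564351, minus strand) lies before the start of PARP9 and crosses the start of DTX3L, which is read from the other strand, and the same 10 bases are the match of DTX3L, 6 bases before to 4 after its start. MX1, which has 3 windows, held the match GAAACCGAAA 12 to 21 bases after one start and TTTCTCTTTC before another. HERC6, UBE2L6, TRIM25, CMPK2, HELZ2, XAF1, SAMD9L, SP100, IFI16 and TDRD7 held neither core in these windows.

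In the control libraries, 8 of the 43 genes were silent in AsPC-1, meaning below 1 FPKM in all 3 siNC libraries, and 34 were expressed at 1 FPKM or more in all siNC libraries of both lines. The silent genes were the dynamin-like antiviral GTPases MX1 and MX2, the guanylate-binding protein GBP4, the ubiquitin ligase TRIM22, the mitochondrial nucleotide kinase CMPK2, the receptor chaperone RTP4, EPSTI1 and the pro-apoptotic XAF1. Of these, 7 were expressed in Capan-1, and CMPK2 was also below 1 FPKM there. HERC5, the main ligase of ISG15, had 1.60, 0.788 and 1.26 FPKM in AsPC-1 siNC and sat on the border. XAF1 was the silent gene nearest the limit, with up to 0.560 FPKM, and RSAD2 was just above it, with 1.31, 1.27 and 1.00 FPKM in AsPC-1 siNC. A limit of 0.5 FPKM left 7 silent genes in AsPC-1, with XAF1 on the border. A limit of 2 FPKM gave 12, with HERC5, RSAD2, GBP2 and IFI44L among them.

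**Figure D1:**
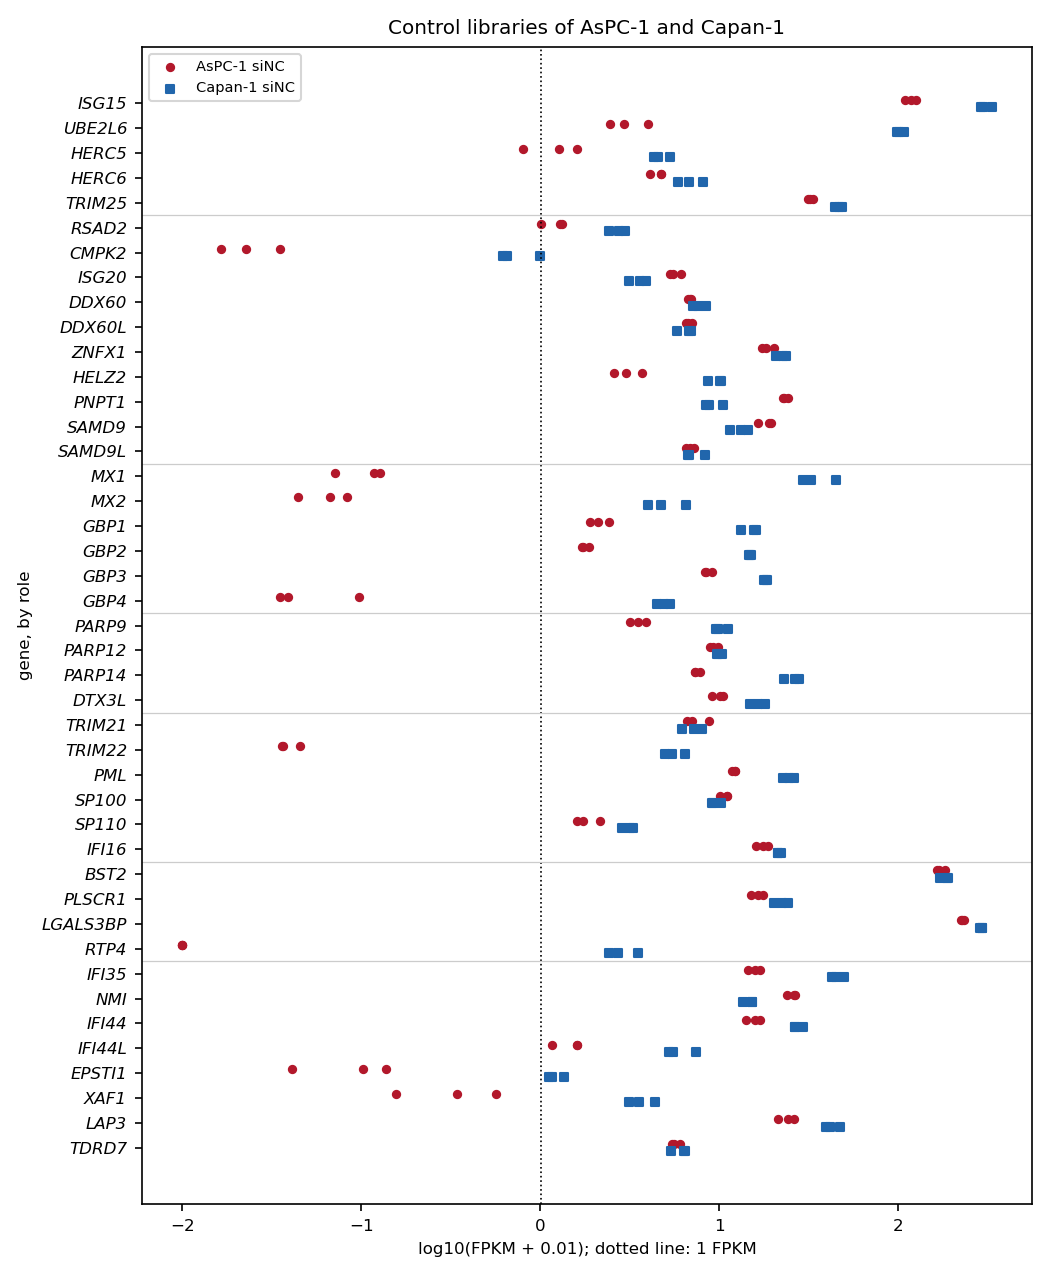
Levels of the 43 genes in the 3 siNC libraries of AsPC-1 (circles) and of Capan-1 (squares) on a log10(FPKM + 0.01) axis, grouped by role, with 1 FPKM as a dotted line. MX1, MX2, GBP4, TRIM22, RTP4, EPSTI1, XAF1 and CMPK2 lie left of the line in AsPC-1, while ISG15, LGALS3BP and BST2 lie furthest right in AsPC-1.

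Among the members tested, the gap between the lines on log2(FPKM + 1) was widest for MX1, which had 0.117, 0.0614 and 0.108 FPKM in AsPC-1 siNC whereas Capan-1 siNC had 29.3, 32.7 and 45.0 FPKM. UBE2L6, the E2 enzyme that passes ISG15 on to its targets, was expressed in both lines but had 2.93, 2.45 and 3.98 FPKM in AsPC-1 siNC against 101, 98.4 and 109 FPKM in Capan-1 siNC. RTP4 was listed at 0 in all 3 AsPC-1 siNC libraries, against 2.42, 2.70 and 3.54 FPKM in Capan-1 siNC. Because the silent class was defined on these levels, they are a description. Over all genes, 31 of the 42 members tested were lower and 5 higher in AsPC-1 siNC than in Capan-1 siNC (limma on log2(FPKM + 1), Benjamini-Hochberg adjusted p under 0.05), where 47.0% of 11656 genes were lower and 37.9% higher. Of the 31, 7 were silent genes, which were defined as low in these AsPC-1 libraries and passed the filter only through Capan-1, so they had to be lower. Outside the silent class 24 of 35 were lower. The 5 higher were PNPT1, NMI, ISG20, SAMD9 and SP100, and PNPT1, a mitochondrial RNA exonuclease, had the largest log2 difference of them, 1.26 ± 0.07 (SE). BST2 was near equal, with 166, 170 and 183 FPKM in the AsPC-1 controls and 187, 173 and 191 FPKM in those of Capan-1 (-0.09 ± 0.05, adjusted p = 0.12).

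With siB4GALT5 in AsPC-1, most of the set was higher than with siNC. Of the 36 members that passed the filter of 1 FPKM in at least 3 of the 6 libraries, 33 rose and none fell (limma, adjusted p under 0.05), where 34.1% of 10601 genes rose and 22.3% fell. Of all genes called, 60.4% were higher, against 49.5% under median-ratio scaling and 71.1% when the libraries were scaled to a common sum. No member was lower either at an unadjusted p under 0.05. The median log2 change of the members was 1.19, against 0.06 over all genes tested. The 3 members not called were GBP1 (0.30), GBP2 (-0.26) and PML (-0.05). The 7 members below the filter, all of the silent class, had no place in this count, and XAF1, also of that class, passed only through the knockdown group. Outside the silent class, 32 of 35 rose. Levels in the 3 siB4GALT5 libraries lay above those in the 3 siNC libraries without overlap for 32 of these 35, where 38.5% of all genes tested did.

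RSAD2, the radical SAM enzyme viperin that makes a chain-terminating nucleotide, had the largest log2 change of the 36 members tested, on log2(FPKM + 1). It had 26.8, 28.3 and 17.1 FPKM in the siB4GALT5 libraries, against 1.31, 1.27 and 1.00 FPKM in siNC. The lowest knockdown library was far above the highest control, and the log2 change was 3.48 ± 0.17 (SE, limma adjusted p = 4.7e-06). ISG20, an exonuclease that degrades single-stranded RNA, had 28.8, 35.4 and 25.8 FPKM in siB4GALT5 and 5.32, 5.5 and 6.13 FPKM in siNC, a log2 change of 2.21 ± 0.11. HELZ2, a helicase-like nuclear coactivator, had 11.9, 14.9 and 16.3 FPKM in siB4GALT5 and 3.70, 2.57 and 3.01 FPKM in siNC, a log2 change of 1.90 ± 0.13. In both genes the groups did not overlap. All 9 members of the RNA, nucleotide and translation group that were tested rose. The RNA helicases DDX60 (1.79 ± 0.07) and DDX60L (1.24 ± 0.07) and the translation inhibitors SAMD9 (1.30 ± 0.10) and SAMD9L (0.66 ± 0.07) were among them, and PNPT1 moved least, by 0.26 ± 0.07.

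The ISG15 group rose as a whole, 5 of 5. ISG15, the ubiquitin-like protein itself, had 535, 677 and 465 FPKM in siB4GALT5 libraries, against 118, 110 and 126 FPKM in siNC libraries. Its level was the highest of the set in AsPC-1 after the knockdown, and its log2 change was 2.22 ± 0.12 (adjusted p = 6.9e-06). HERC5 had 9.82, 9.29 and 7.93 FPKM in siB4GALT5 and 1.60, 0.788 and 1.26 FPKM in siNC (log2 change 2.19 ± 0.14). HERC6, its close relative, had 20.1, 24.7 and 17.9 FPKM in siB4GALT5 and 4.74, 4.12 and 4.75 FPKM in siNC (1.97 ± 0.11). The E2 enzyme UBE2L6 rose by 1.13 ± 0.15, and TRIM25, a ligase that activates the RNA sensor RIG-I, by 1.04 ± 0.06.

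All 4 members of the ADP-ribosylation group rose, with log2 changes of 0.88 for PARP12 to 1.57 for PARP9. DTX3L, the ubiquitin ligase that works as a dimer with PARP9, had 19.2, 23.4 and 22.8 FPKM in siB4GALT5 and 10.5, 9.12 and 10.1 FPKM in siNC. PARP14 had 12.8, 16.2 and 16.9 FPKM in siB4GALT5 and 7.80, 7.30 and 7.33 FPKM in siNC, so that in neither gene did the groups overlap. BST2, or tetherin, which holds budding virions at the cell surface, had 254, 311 and 237 FPKM in siB4GALT5 and 166, 170 and 183 FPKM in siNC, a log2 change of 0.62 ± 0.10. The membrane protein PLSCR1 rose by 1.41 ± 0.12 and the secreted glycoprotein LGALS3BP by 0.25 ± 0.05. Of the nuclear proteins, IFI16, a DNA sensor, rose by 1.32 ± 0.07, the chromatin readers SP110 and SP100 by 1.24 ± 0.12 and 0.76 ± 0.09, and the antibody receptor TRIM21 by 0.95 ± 0.12. PML, which builds the nuclear bodies, had 11.4, 12.5 and 11.3 FPKM in siB4GALT5 and 12.2, 11.9 and 12.3 FPKM in siNC, groups that overlapped.

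Of the guanylate-binding proteins, GTPases that attack the membranes around intracellular pathogens, only GBP3 was called, with a log2 change of 0.30 ± 0.11 (adjusted p = 0.0405). That call was lost when any 1 siNC library or siB4GALT5 replicate 2 was left out, with adjusted p of 0.0657 to 0.115. GBP1 had 2.24, 4.45 and 2.24 FPKM in siB4GALT5 and 2.41, 2.09 and 1.89 FPKM in siNC, and the high value came from 1 library. GBP2 had 1.39, 1.76 and 0.892 FPKM in siB4GALT5 and 1.71, 1.87 and 1.73 FPKM in siNC, and without siB4GALT5 replicate 2 it was called lower (-0.38, adjusted p = 0.032). The last group rose in all 7 tested members. IFI44L, which has been described as a feedback inhibitor of the interferon response, had 8.93, 15.2 and 15.4 FPKM in siB4GALT5 against 1.61, 1.16 and 1.60 FPKM in siNC, a log2 change of 2.5 ± 0.19. Its neighbour IFI44 rose by 1.77 ± 0.08, IFI35 by 1.44 ± 0.12, the IFI35 partner NMI by 0.82 ± 0.06, the aminopeptidase LAP3 by 0.90 ± 0.11 and TDRD7, an inhibitor of autophagy, by 0.35 ± 0.08.

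**Figure D2:**
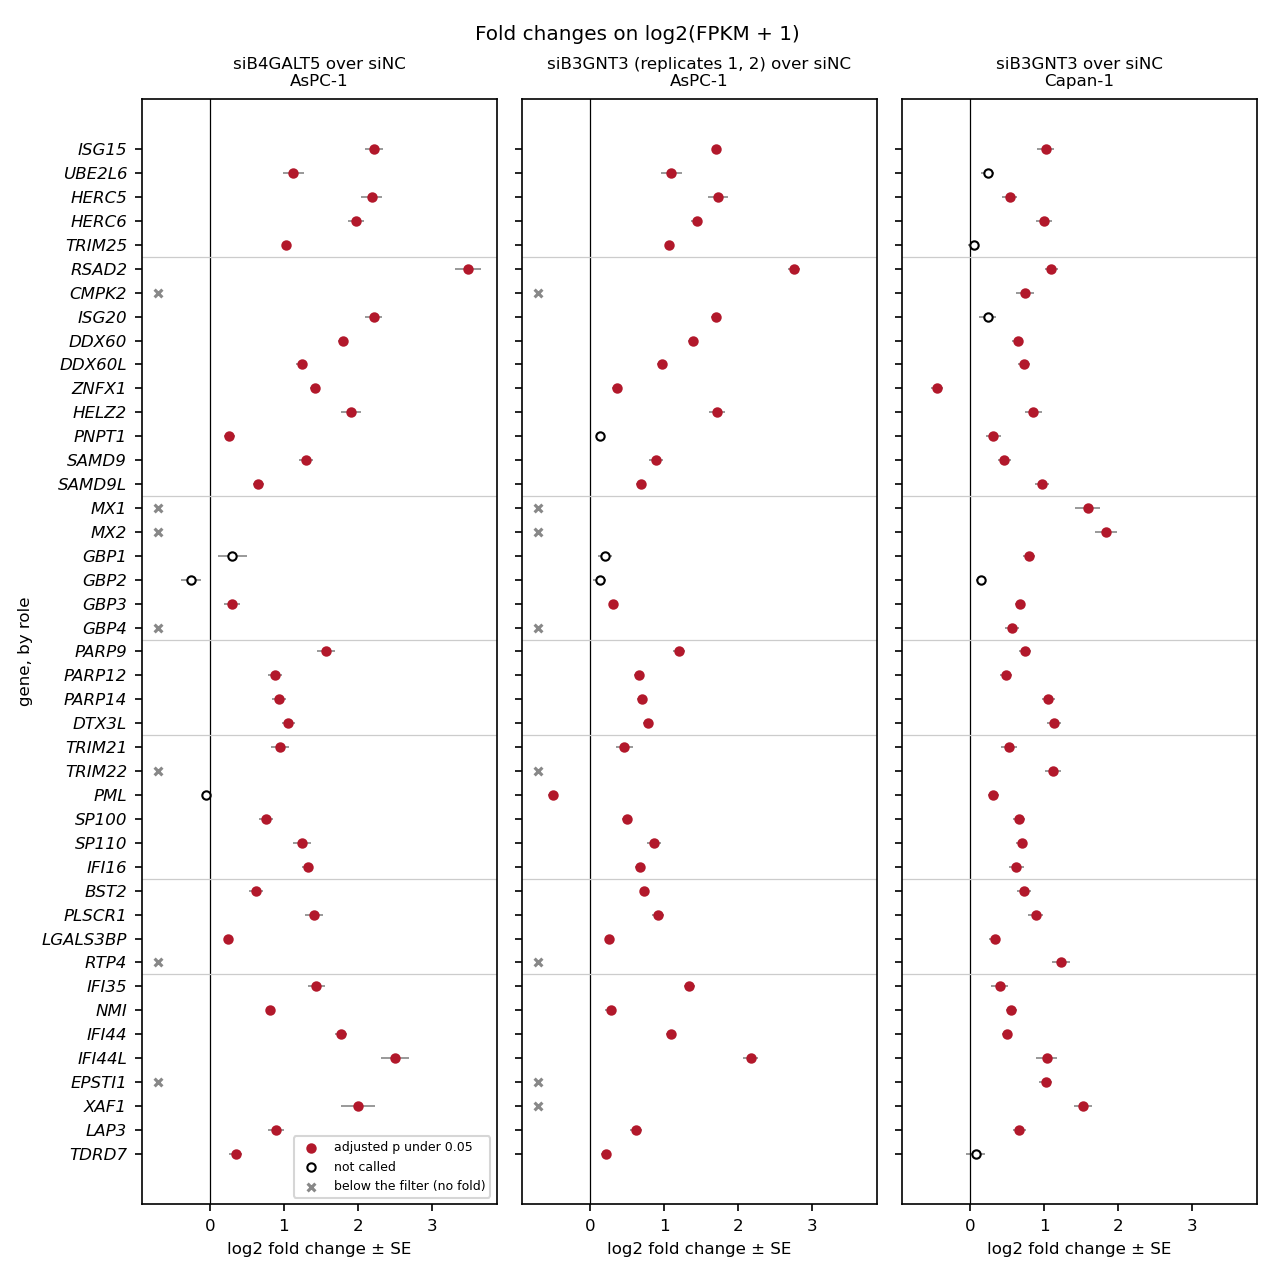
Log2 fold changes on log2(FPKM + 1) with standard errors for the 43 genes, grouped by role, for siB4GALT5 in AsPC-1, siB3GNT3 in AsPC-1 without replicate 3, and siB3GNT3 in Capan-1. Filled points passed an adjusted p under 0.05, open points did not, and crosses at the left edge mark genes below the filter, which have no fold. RSAD2 reaches 3.48 in the first panel, and ZNFX1 lies at -0.44 in the third.

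The silent genes of AsPC-1 were measured at low levels throughout. MX1 had 0.531, 0.859 and 0.451 FPKM in siB4GALT5 libraries against 0.117, 0.0614 and 0.108 FPKM in siNC, so the groups did not overlap but every library stayed below 1 FPKM. MX2 had 0.630, 1.36 and 1.51 FPKM in siB4GALT5 and 0.0569, 0.0345 and 0.0735 FPKM in siNC. XAF1 reached 2.63, 5.06 and 5.88 FPKM in siB4GALT5, against 0.560, 0.146 and 0.333 FPKM in siNC. It was the only gene of the class to be above 1 FPKM in all 3 libraries of a knockdown group of AsPC-1 as labelled.

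EPSTI1, an interferon-inducible gene first described in breast epithelium next to stroma, had 0.686, 1.65 and 0.808 FPKM in siB4GALT5 and 0.127, 0.0313 and 0.0925 FPKM in siNC. CMPK2 had 0.382, 0.959 and 0.825 FPKM in siB4GALT5 and 0.0126, 0.00637 and 0.0251 FPKM in siNC. TRIM22 had 0.243, 0.276 and 0.202 FPKM in siB4GALT5 and 0.0263, 0.0355 and 0.0262 FPKM in siNC. In these 3 genes the groups did not overlap. RTP4 had 0.139, 0.0514 and 0.152 FPKM in siB4GALT5 and was listed at 0 in each siNC library. GBP4 had 0.102, 0.105 and 0.0701 FPKM in siB4GALT5 and 0.0867, 0.0250 and 0.0288 FPKM in siNC, and its groups overlapped. In a fit with a pseudocount of 0.1 and no filter, added after the data had been seen, 7 of the 8 silent genes were called higher, and GBP4 was not (0.41, adjusted p = 0.185), where 17.2% of 21023 genes were called higher. The log2 changes on log2(FPKM + 0.1) ran from 1.39 for TRIM22 to 3.41 for XAF1, without RTP4, for which no fold is given against a group listed at 0. The class was chosen for low values in the same controls, so nothing is read from this count, and it is not set beside those of the 34 expressed genes.

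For siB3GNT3 in AsPC-1 as labelled, 35 members were tested and none was called, with adjusted p of 0.251 to 0.604 (limma), while 19 had an unadjusted p under 0.05. Of all 10504 genes tested 0% were called in either direction, and at an unadjusted p under 0.05 there were 1155 higher and 743 lower. Without replicate 3, whose target was at the control level, 31 of the same 35 members rose and 1 fell, where 37.0% of 10430 genes rose and 25.7% fell. The median log2 change of the members was then 0.78. GBP1, GBP2 and PNPT1 were not called.

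Replicates 1 and 2 resembled each other closely in the set, and replicate 3 sat with the controls. RSAD2 had 13.6 and 14 FPKM in siB3GNT3 replicates 1 and 2 and 1.52 FPKM in replicate 3, against 1.31, 1.27 and 1.00 FPKM in siNC. ISG15 had 376 and 399 FPKM in replicates 1 and 2 and 119 FPKM in replicate 3, against 118, 110 and 126 FPKM in siNC. IFI44L had 10.4 and 9.57 FPKM in replicates 1 and 2 and 1.61 FPKM in replicate 3, against 1.61, 1.16 and 1.60 FPKM in siNC. Without replicate 3 the log2 changes of these genes were 2.75 ± 0.08, 1.71 ± 0.06 and 2.17 ± 0.10. HERC5 (6.15, 6.40 and 1.10 FPKM), HERC6 (14.1, 13.9 and 4.89 FPKM), ISG20 (20.9, 20.4 and 5.86 FPKM) and HELZ2 (11.8, 12.9 and 3.09 FPKM) showed the same split between replicates 1, 2 and 3. BST2 had 287, 287 and 173 FPKM, DTX3L 17.5, 17.9 and 10.2 FPKM, and PARP14 12.7, 12.8 and 8.05 FPKM in those libraries.

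The member that fell was PML, which had 7.98 and 8.59 FPKM in siB3GNT3 replicates 1 and 2 and 13.0 FPKM in replicate 3, against 12.2, 11.9 and 12.3 FPKM in siNC. Its log2 change without replicate 3 was -0.50 ± 0.06 (adjusted p = 7.9e-05). Among the silent genes, XAF1 had 4.35, 4.08 and 0.336 FPKM, EPSTI1 0.974, 1.26 and 0.111 FPKM, and MX2 0.889, 0.532 and 0.0912 FPKM in siB3GNT3 replicates 1, 2 and 3. MX1 had 0.363, 0.433 and 0.1 FPKM, TRIM22 0.219, 0.217 and 0.0264 FPKM, CMPK2 0.195, 0.123 and 0.0569 FPKM, GBP4 0.0905, 0.0934 and 0.0662 FPKM, and RTP4 0.185, 0 and 0.0339 FPKM. In the control libraries XAF1, the highest of these genes, had at most 0.560 FPKM. With a pseudocount of 0.1, no filter and replicate 3 left out, 6 of the 8 were called higher, and GBP4 (adjusted p = 0.234) and RTP4 (adjusted p = 0.273) were not, where 19.4% of 20600 genes were called higher. The controls that define the class enter this test as well, and nothing is read from the count.

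**Figure D3:**
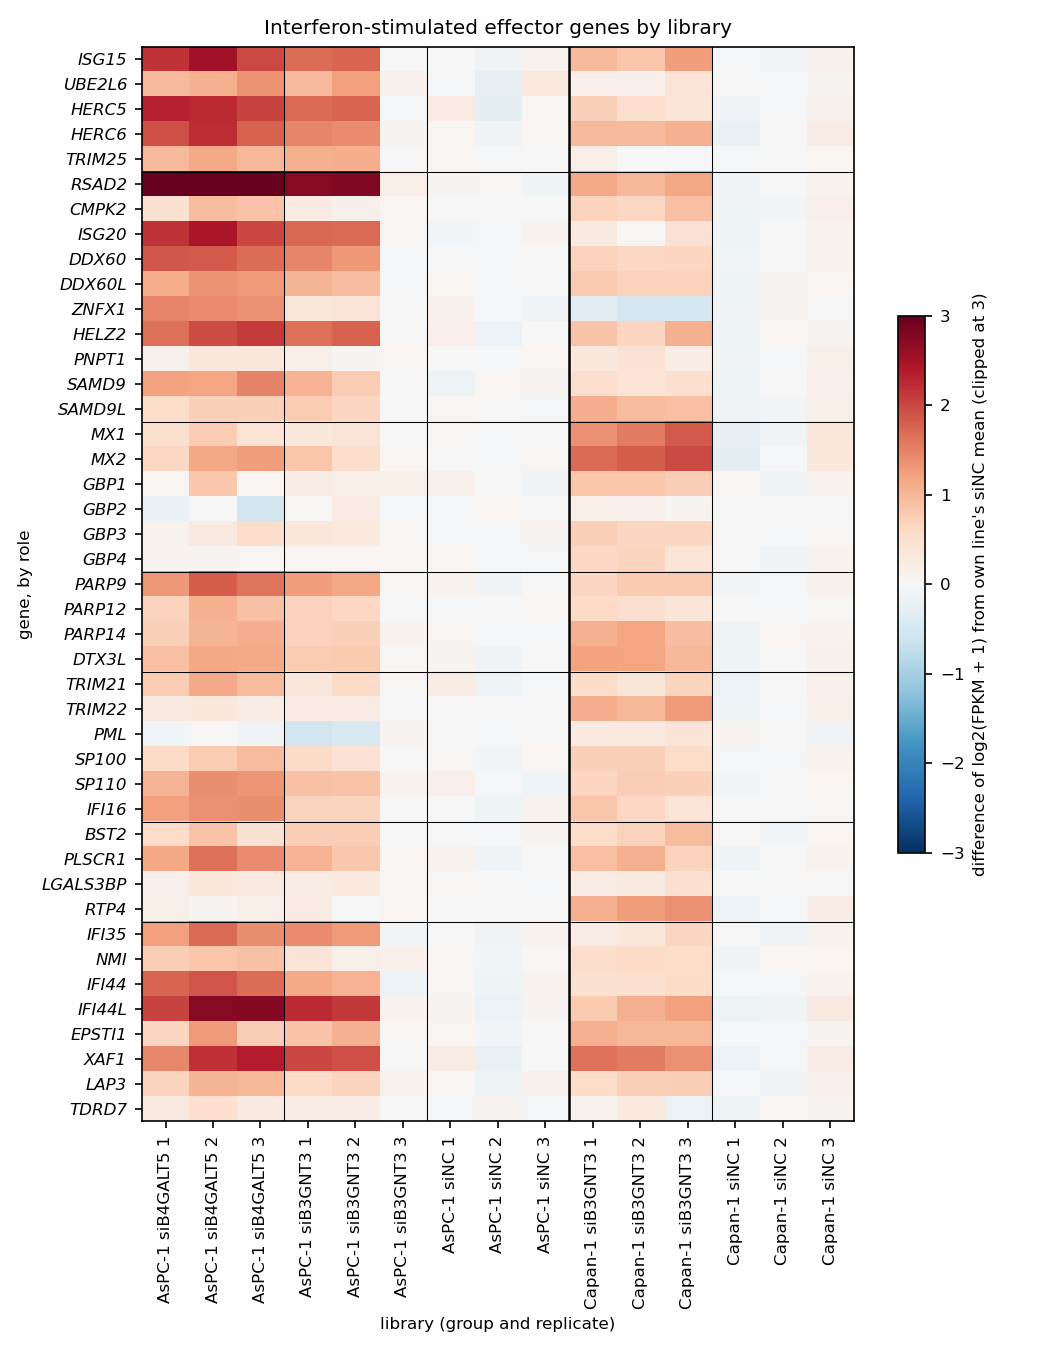
Each cell is the difference of log2(FPKM + 1) in 1 library from the mean of the siNC libraries of its own line, for the 43 genes in rows by role and the 15 libraries in columns, with the color scale clipped at 3. The third AsPC-1 siB3GNT3 column is as pale as the siNC columns, the siB4GALT5 columns are darkest in RSAD2, and the Capan-1 siB3GNT3 columns are darkest in MX1, MX2 and XAF1.

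The targeted gene was reduced in all 3 Capan-1 siB3GNT3 libraries. With that siRNA 37 of the 43 members rose and 1 fell (limma, adjusted p under 0.05). Of all 11493 genes tested, 18.7% rose and 14.2% fell. These shares over all genes were 10.5% to 10.8% and 7.65% to 7.69% when siNC replicate 1, 2 or 3 was left out, with 33 to 35 members higher, and 26.5% and 23.9% without siB3GNT3 replicate 3, with 37 members higher. Of all genes called, 56.8% were higher, against 46.2% under median-ratio scaling. The median log2 change was 0.67 for the members and 0.02 over all genes. CMPK2 passed the filter only through the knockdown group. The members not called were UBE2L6 (0.24), TRIM25 (0.05), ISG20 (0.24), GBP2 (0.15) and TDRD7 (0.07). PNPT1, LGALS3BP, IFI35 and PML were called but lost their calls when 1 of the libraries was left out, for PNPT1 in 4 of 6 cases and for the other 3 genes in 2 or 3 cases each.

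The largest log2 changes, on log2(FPKM + 1), were in genes that were silent in AsPC-1 controls. MX2 had 18.4, 20.2 and 22.8 FPKM in siB3GNT3 libraries of Capan-1, against 4.02, 4.75 and 6.5 FPKM in siNC, a log2 change of 1.83 ± 0.15 (adjusted p = 0.00019). MX1 had 92.1, 105 and 128 FPKM in siB3GNT3 and 29.3, 32.7 and 45.0 FPKM in siNC, a log2 change of 1.59 ± 0.17. XAF1 had 13.5, 12.7 and 11.1 FPKM in siB3GNT3 and 3.11, 3.55 and 4.40 FPKM in siNC, a log2 change of 1.52 ± 0.12. In all 3 the lowest knockdown library was above the highest control by a wide margin. RTP4 had 7.05, 8.14 and 9.03 FPKM in siB3GNT3 and 2.42, 2.70 and 3.54 FPKM in siNC (1.23 ± 0.13). TRIM22 had 13.0, 12.3 and 14.9 FPKM in siB3GNT3 and 5.00, 5.48 and 6.42 FPKM in siNC (1.12 ± 0.10). The groups did not overlap in either gene.

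The remaining genes of the silent class also rose in Capan-1. EPSTI1 had 3.64, 3.36 and 3.39 FPKM in siB3GNT3 and 1.11, 1.15 and 1.35 FPKM in siNC (1.02 ± 0.08). GBP4 had 8.03, 8.44 and 6.79 FPKM in siB3GNT3 and 4.94, 4.50 and 5.31 FPKM in siNC (0.56 ± 0.10). CMPK2 had 1.82, 1.66 and 2.27 FPKM in siB3GNT3 and 0.611, 0.639 and 0.989 FPKM in siNC (0.74 ± 0.12). CMPK2 passed the filter only through siB3GNT3, so its groups could not overlap and it is not counted here. The other 7 did not overlap between the groups in Capan-1, where 28% of all genes tested were higher without overlap.

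Among genes expressed in both lines, DTX3L had 39.5, 38.6 and 33.8 FPKM in Capan-1 siB3GNT3 and 14.9, 16.5 and 18.0 FPKM in siNC, a log2 change of 1.13 ± 0.09. PARP14 had 54.9, 59.5 and 50.3 FPKM in siB3GNT3 and 23.2, 26.7 and 27.8 FPKM in siNC (1.06 ± 0.09), and all 4 members of the ADP-ribosylation group rose. RSAD2 had 7.10, 6.40 and 7.35 FPKM in siB3GNT3 and 2.43, 2.74 and 2.98 FPKM in siNC (1.10 ± 0.09). These groups did not overlap. ISG15 had 606, 544 and 735 FPKM in siB3GNT3 and 299, 290 and 333 FPKM in siNC (1.02 ± 0.11). IFI44L had 11.1, 13.7 and 15.5 FPKM in siB3GNT3 and 5.24, 5.54 and 7.38 FPKM in siNC (1.03 ± 0.14). BST2 had 271, 296 and 353 FPKM in siB3GNT3 and 187, 173 and 191 FPKM in siNC (0.73 ± 0.10).

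Other expressed members rose in Capan-1 as well. HERC6 had 14.5, 14.3 and 15.3 FPKM in siB3GNT3 and 5.85, 6.75 and 8.08 FPKM in siNC, HELZ2 18.3, 15.6 and 21.2 FPKM against 8.66, 10.1 and 10.2 FPKM, and HERC5 8.35, 7.05 and 6.52 FPKM against 4.32, 4.57 and 5.28 FPKM, in the same order of groups, and none of the 3 overlapped. Of the 6 dynamin-like GTPases 5 rose, with GBP1 at 0.80 ± 0.08 and GBP3 at 0.67 ± 0.06. All 6 members of the TRIM, nuclear-body and DNA-sensing group rose, from 0.31 for PML to 1.12 for TRIM22. PML had 29.6, 30.2 and 32.3 FPKM in siB3GNT3 and 26.2, 24.6 and 22.8 FPKM in siNC. ISG20 had 4.42, 3.61 and 5.08 FPKM in siB3GNT3 and 3.13, 3.58 and 3.91 FPKM in siNC, groups that overlapped.

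ZNFX1, a helicase that senses viral double-stranded RNA at the mitochondrial outer membrane, was the member that fell in Capan-1. It had 17.8, 15.5 and 15.3 FPKM in siB3GNT3 and 20.8, 23.7 and 22.7 FPKM in siNC, a log2 change of -0.44 ± 0.08 (adjusted p = 0.006). In AsPC-1 it had 52.8, 51.7 and 50.1 FPKM in siB4GALT5 and 23.7, 24.7 and 18.7 FPKM in siB3GNT3, against 20.4, 18.3 and 17.3 FPKM in siNC. Its log2 change was thus 1.42 ± 0.07 with siB4GALT5 and, without replicate 3, 0.36 ± 0.07 with siB3GNT3. ZNFX1 overlaps DDX27 and the antisense transcript ZFAS1 in the annotation, and no source used here states whether counting used strand, so reads of these genes may not be told apart. ZFAS1 had 317 to 359 FPKM in siB4GALT5 and 126 to 304 FPKM in siB3GNT3 against 115 to 120 FPKM in siNC of AsPC-1, and 89.8 to 134 FPKM in siB3GNT3 against 83.9 to 91.5 FPKM in siNC of Capan-1, where the groups overlapped. RSAD2 and CMPK2, and PARP9 and DTX3L, also overlap on opposite strands. So do DDX60L with PALLD, SP110 with SP140, TRIM25 with DGKE, and TRIM22, over its whole length, with TRIM5. TRIM25 overlaps C17orf67 on the same strand. In AsPC-1 TRIM5 had 9.49 to 11.4 FPKM in siB4GALT5 and 5.42 to 6.04 FPKM in siNC, while TRIM22 had a mean of 0.240 FPKM in siB4GALT5. Whether reads of TRIM5 enter the TRIM22 values was not tested. MX1 with MX2, GBP1 to GBP4, SAMD9 with SAMD9L, and DDX60 with DDX60L are related in sequence, and the authors' counting may have divided shared reads between them.

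**Figure D4:**
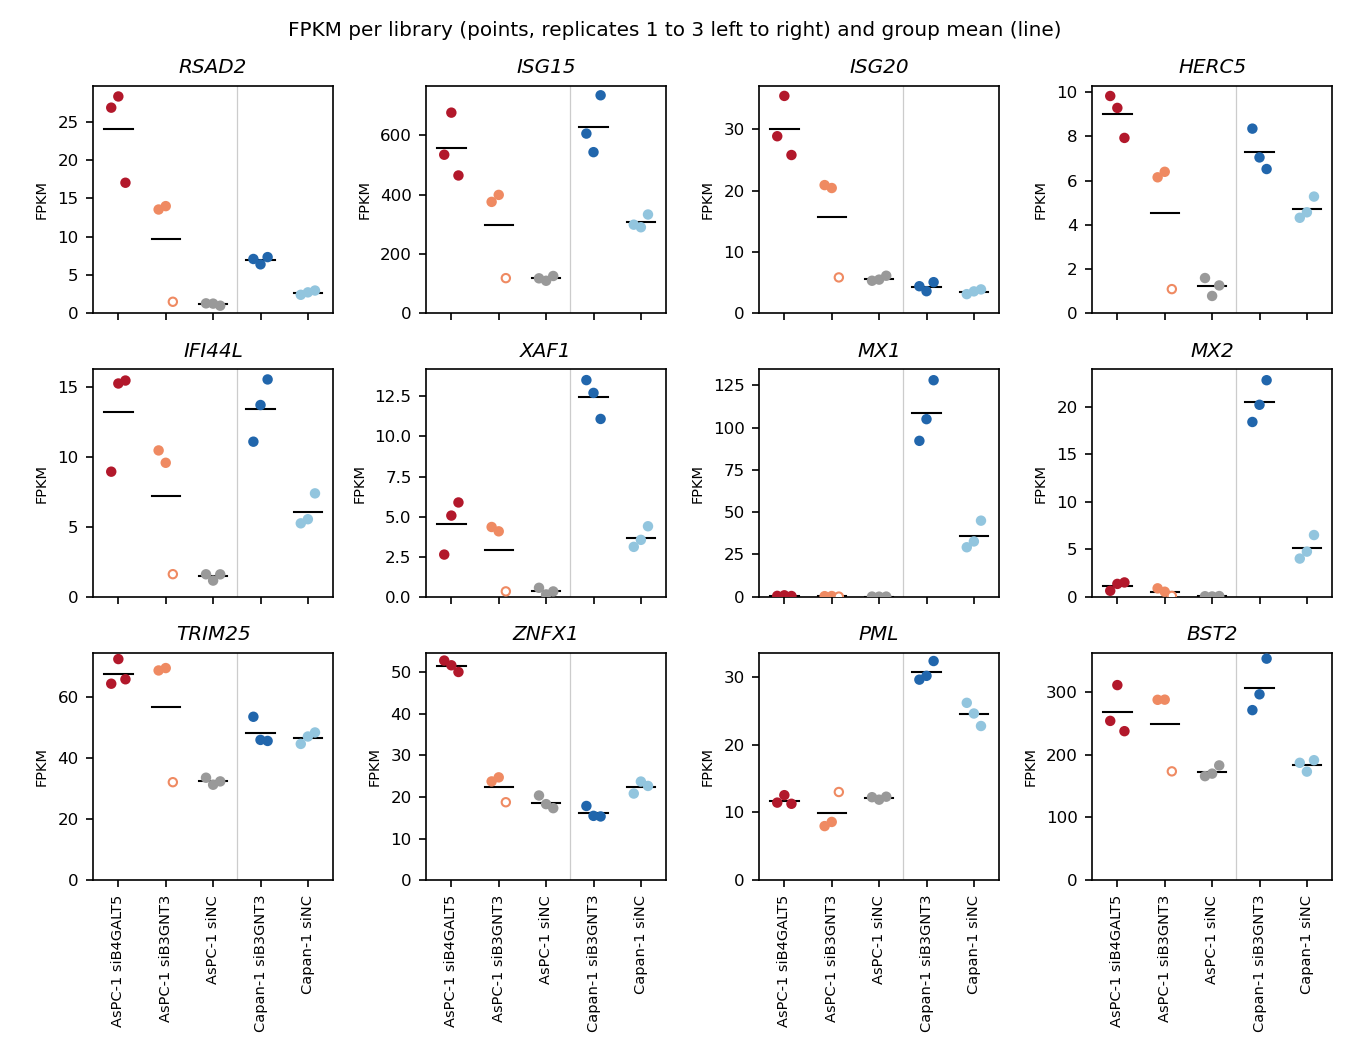
FPKM in each library (points, replicates 1 to 3 from left to right) and group means (lines) for 12 of the genes, in AsPC-1 left of the grey line and in Capan-1 right of it. The open point is AsPC-1 siB3GNT3 replicate 3, which lies with the AsPC-1 siNC libraries for RSAD2, ISG15, TRIM25 and PML, and MX1 in AsPC-1 does not rise above 0.859 FPKM on an axis that holds the 128 FPKM of Capan-1.

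The siB4GALT5 response in AsPC-1 and the siB3GNT3 response in Capan-1 share no library, so their calls could be laid side by side. Of the 36 members tested in both, 33 rose in AsPC-1, 30 in Capan-1 and 28 in both. The 28 are 84.8% of those that rose in AsPC-1 and 93.3% of those that rose in Capan-1. With so many of the 36 higher in each line, most had to be shared. The overlap therefore does not show that the same members were picked out in both lines. XAF1 is among the 28, and it passed the AsPC-1 filter only through the knockdown group, so it had to be higher there. Over all 9968 genes tested in both, 3430 rose in AsPC-1, 1724 in Capan-1 and 998 (10.0%) in both. The 998 are 29.1% and 57.9% of the lists of AsPC-1 and Capan-1. Across the 36 members the log2 changes had a Pearson r of 0.396 and a Spearman rho of 0.367, against 0.349 and 0.323 across the 9968 genes. These correlations are across genes, which are not independent replicates. Members with the response element core in their promoter window had a median log2 change of 1.24 in AsPC-1 with siB4GALT5, against 1.19 for those without it among the members in the fit, and 0.73 against 0.66 in Capan-1 with siB3GNT3.

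How far the siB3GNT3 response differed between lines was tested as an interaction over the 12 libraries concerned. As labelled, 1 member had a higher response in AsPC-1 than in Capan-1, ZNFX1 (0.69 ± 0.15, limma adjusted p = 0.019), and 8 had a lower one, where 4.68% of 12134 genes were higher and 3.74% lower. Of the 8, MX1, MX2, RTP4, TRIM22, GBP4 and CMPK2 were of the silent class, which was chosen for low AsPC-1 control levels and entered this fit through Capan-1. Nothing is read from their number, since values below 1 FPKM can move little on log2(FPKM + 1). Outside that class 1 of 35 members was higher and 2 were lower, GBP1 and GBP3. The ZNFX1 call was lost when any of 6 single libraries was left out (adjusted p of 0.0517 to 0.0574), and those of GBP3, GBP4 and CMPK2 were lost in several such fits. Without AsPC-1 siB3GNT3 replicate 3, 15 of the 35 members outside the silent class had a higher response in AsPC-1 and 5 a lower one, against 20.4% and 15.2% of 12113 genes.

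For the silent genes this difference depended on the scale. MX1 rose 3.04-fold in Capan-1 as a ratio of group means, and in AsPC-1 the ratio was 4.17 without replicate 3, while the interaction on log2(FPKM + 1) was -1.24 ± 0.22, with every AsPC-1 value of MX1 below the pseudocount of 1. With a pseudocount of 0.1, no filter and replicate 3 left out, it was -0.26 ± 0.28 (adjusted p = 0.625). Under that setting MX2 (0.35), TRIM22 (0.06), CMPK2 (-0.11), GBP4 (-0.23) and RTP4 were not called either, with adjusted p of 0.429 to 0.867, while EPSTI1 (1.30, adjusted p = 0.0203) and XAF1 (1.65, adjusted p = 0.0366) were called higher in AsPC-1. Without replicate 3 on log2(FPKM + 1), MX2 was at -1.14, TRIM22 at -0.88 and EPSTI1 at -0.05, so these 3 changed sign between the scales, and XAF1, at 0.44, did not.

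Outside the silent class most of the differences named here were called with both pseudocounts, with the exceptions given. Without replicate 3, RSAD2 responded more in AsPC-1 by 1.66 ± 0.12 on log2(FPKM + 1) and by 2.10 ± 0.17 with the smaller pseudocount. ISG20 did so by 1.47 ± 0.15 and 1.57 ± 0.19, and TRIM25 by 1.02 ± 0.10 and 1.04 ± 0.10. TRIM25 had 68.7, 69.5 and 32.1 FPKM in siB3GNT3 and 33.6, 31.3 and 32.3 FPKM in siNC of AsPC-1, against 53.5, 45.9 and 45.6 FPKM in siB3GNT3 and 44.6, 47.1 and 48.4 FPKM in siNC of Capan-1, where the groups overlapped. All 5 members of the ISG15 group responded more in AsPC-1 (0.44 to 1.20), though HERC6 did not keep its call with the smaller pseudocount (adjusted p = 0.0597), and HERC5 was on the border of 1 FPKM in AsPC-1 controls. SAMD9, with a higher response in AsPC-1, and PARP14 and DTX3L, with a lower one, also lost their calls with the smaller pseudocount. PML (-0.82 ± 0.09) and GBP1 (-0.60 ± 0.12) responded less, and both kept an adjusted p under 0.05 with the smaller pseudocount.

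**Figure D5:**
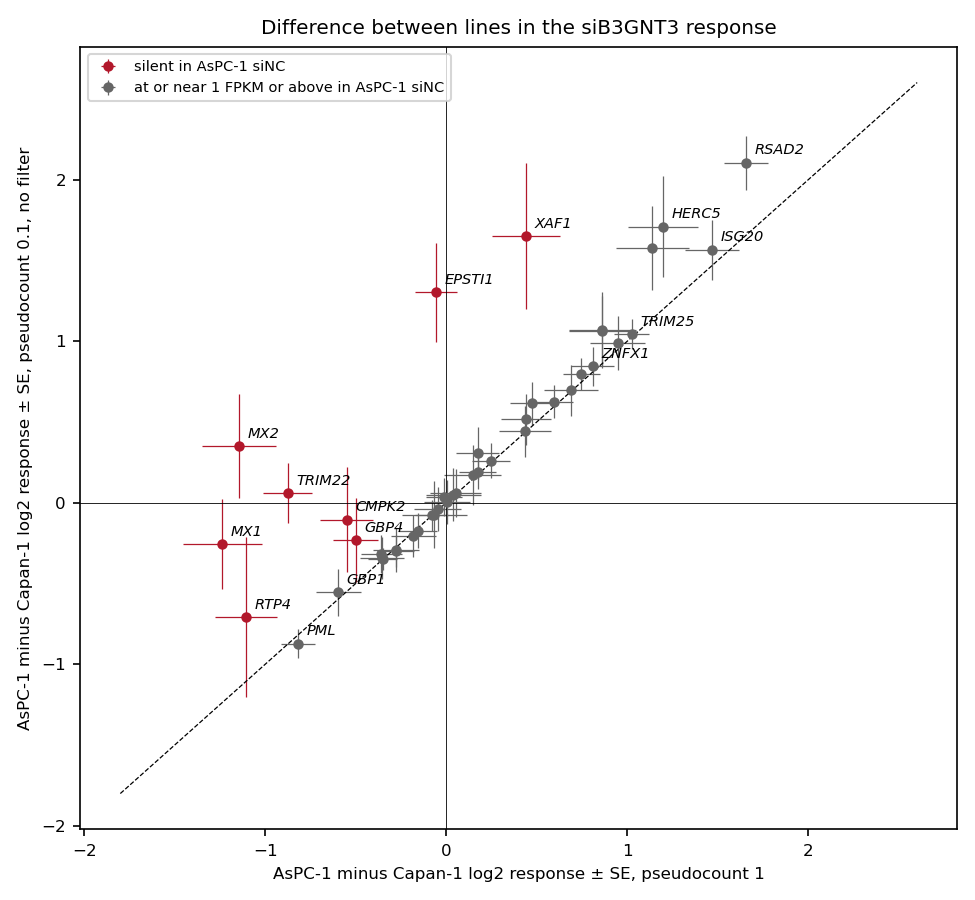
Difference between the siB3GNT3 response of AsPC-1 and that of Capan-1 (AsPC-1 minus Capan-1, log2, with standard errors) for the 43 genes without AsPC-1 siB3GNT3 replicate 3, with a pseudocount of 1 (x axis) and with 0.1 and no filter (y axis). The genes silent in AsPC-1 siNC (red) lie above the dashed line of equal values, with MX1 at -1.24 and -0.26, while TRIM25, ISG20 and PML lie close to it.

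Both knockdowns of AsPC-1 were compared directly, since their contrasts with siNC share the controls. As labelled, 3 members were higher with siB4GALT5 than with siB3GNT3, ZNFX1 (1.18 ± 0.12), IFI16 (0.87 ± 0.18) and NMI (0.58 ± 0.10), and none was lower (limma, adjusted p under 0.05), where 2.36% of 10631 genes were higher and 2.66% lower. No member was lower at an unadjusted p under 0.05. The ZNFX1 call was lost without siB4GALT5 replicate 1 or 2 (adjusted p = 0.0691 and 0.0628), and those of IFI16 and NMI when any library other than siB3GNT3 replicate 3 was left out. Without replicate 3, 13 members were higher and none lower, where 13.5% of 10540 genes were higher and 12.1% lower. The 13 were ISG15, HERC5, HERC6, RSAD2, ISG20, DDX60, ZNFX1, TRIM21, PML, IFI16, PLSCR1, NMI and IFI44, and ZNFX1 differed most, by 1.06 ± 0.06. RSAD2 differed by 0.73 ± 0.20, ISG15 by 0.51 ± 0.14 and PML by 0.46 ± 0.08. TRIM25 (-0.03 ± 0.07) and XAF1 (0.03 ± 0.25) were not called.

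The rest of the interferon pathway was described with 49 other genes. Its counts stand against 34.1% of all genes that rose and 22.3% that fell with siB4GALT5 in AsPC-1, and 18.7% and 14.2% with siB3GNT3 in Capan-1. Of 13 other interferon-stimulated genes, 13 rose with siB4GALT5 in AsPC-1 and 12 with siB3GNT3 in Capan-1, among them IFIT2, which blocks translation of viral RNA (3.09 ± 0.13 and 0.89 ± 0.11), and IFIT1 (2.54 ± 0.10 and 1.46 ± 0.15). Of 10 JAK, STAT and IRF factors, 6 rose and 1 fell in AsPC-1, and in Capan-1 7 of 9 rose. IRF7 changed by 2.00 ± 0.14 in AsPC-1 and 1.27 ± 0.12 in Capan-1, and IRF9 by 1.51 ± 0.12 and 0.99 ± 0.09. Of 10 RNA and DNA sensors and adaptors tested, 6 rose with siB4GALT5 in AsPC-1 and 5 with siB3GNT3 in Capan-1, including the RNA sensor IFIH1 (2.40 ± 0.06 and 0.84 ± 0.11).

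Of 5 interferon genes in the table, IFNL1, which encodes interferon lambda 1, was the only one tested with siB4GALT5 in AsPC-1. It had 7.12, 10.4 and 5.59 FPKM in siB4GALT5 against 0.164, 0.0331 and 0.260 FPKM in siNC, a log2 change of 2.88 ± 0.18, and passed the filter only through the knockdown group. With siB3GNT3 in AsPC-1 IFNL1 was below the filter and not tested. Without replicate 3 its mean there was 4.02 FPKM against 0.152 FPKM in siNC, without overlap, while as labelled the groups overlapped. USP18, which removes ISG15 and blocks the type I receptor, rose by 1.97 ± 0.14 with siB4GALT5 in AsPC-1 and by 1.16 ± 0.07 with siB3GNT3 in Capan-1. SOCS1, an inhibitor of JAK kinases, rose by 1.83 ± 0.10 with siB3GNT3 in Capan-1, and its siB3GNT3 response was lower in AsPC-1 than in Capan-1 by -1.92 ± 0.16 as labelled (limma interaction, adjusted p = 0.00014). Of the receptor chains tested, 1 of 5 rose and 1 fell in AsPC-1 with siB4GALT5, and 2 of 6 rose in Capan-1, and nothing is read from counts this small.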

How the data were processed

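The authors deposited FPKM values per gene for the 15 libraries. Per the labels' protocols, total RNA was prepared on silica columns; per the submitters' processing notes, Bowtie2, RSEM 1.3.1, DESeq2 1.4.5 and GRCh38 were used, with no roles given. Titles name Capan-1, while a source field spells that line otherwise. No source used here states whether counting used strand.

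From the FPKM values, log2(FPKM + 1) was tested with limma 3.58.1 (R 4.3.3; empirical Bayes with intensity trend) after keeping genes at 1 FPKM or more in at least 3 libraries of the fit, with Benjamini-Hochberg adjustment over all genes tested and calls at 0.05. Fold changes on this scale understate the change of low genes. Each fit used only the groups compared, 6 libraries, or 12 for the difference between lines. The script was tested on simulated data. Alternatives were another pseudocount, filter and scaling, a replicate block and leaving out each library. Values in every library are given for the 8 members with the largest called change in siB4GALT5 AsPC-1 and the 8 in siB3GNT3 Capan-1, members called lower, members of the silent class, and ISG15, MX1 and BST2; TRIM25, UBE2L6, GBP1 and GBP2 were added after their values were seen. Of each pathway list up to 3 genes with the smallest p could be named. The members and lists were chosen with earlier results of these data known. FPKM carry no counts, so no counting intervals are given.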

Additional observations from a re-analysis of the deposited data

Results flagged for a closer look

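The siB3GNT3 response differed between AsPC-1 and Capan-1, by the interaction test with the libraries as labelled, for 9 of the genes. Of these, 1 was higher in AsPC-1 and 8 lower, where 4.68% of 12134 genes were higher and 3.74% lower. Outside the silent class 1 of 35 members was higher and 2 were lower, near the shares over all genes, and nothing is read from the count. On log2(FPKM + 1), AsPC-1 minus Capan-1, the difference was -1.36 for MX2, -1.35 for MX1, -1.13 for RTP4, -0.96 for TRIM22, -0.59 for CMPK2 and -0.51 for GBP4, all silent in AsPC-1 controls. These 6 were chosen for low AsPC-1 control levels and entered the fit through Capan-1, and with a pseudocount of 0.1, no filter and replicate 3 left out none of them was called, with MX2 (0.35) and TRIM22 (0.06) of the other sign. It was -0.60 for GBP1, -0.45 for GBP3 and 0.69 for ZNFX1, which both lines express. The library labelled AsPC-1 siB3GNT3 replicate 3, with its target at the control level, enters the values as labelled. Without it, on log2(FPKM + 1), the difference was 0.81 for ZNFX1, -0.60 for GBP1 and -0.35 for GBP3. For the silent genes it was -1.24 for MX1, -1.14 for MX2, -1.11 for RTP4, -0.88 for TRIM22, -0.55 for CMPK2 and -0.50 for GBP4.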

How the results depend on the processing

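Leaving out single libraries gave 0 to 1 members lower with siB4GALT5 in AsPC-1. For siB3GNT3 in AsPC-1 it gave 0 to 31 members higher, 0 to 1 lower and 0 to 6533 of all genes. The upper ends were without replicate 3, where 37.0% of 10430 genes were higher and 25.7% lower. For siB3GNT3 in Capan-1 it gave 2069 to 5715 genes, for the difference between lines 0 to 15 members higher, 5 to 11 lower and 501 to 4316 genes, and for siB4GALT5 against siB3GNT3 0 to 13 members higher and 23 to 2693 genes. Without AsPC-1 siB3GNT3 replicate 3, 20.4% of 12113 genes were higher and 15.2% lower for the difference between lines. For siB4GALT5 against siB3GNT3 the shares were then 13.5% and 12.1% of 10540 genes. HERC6 in the difference between lines ran from -0.24 to 0.44, the upper value without AsPC-1 siB3GNT3 replicate 3. With a pseudocount of 0.1 the difference between lines had 1 member lower, where 2.51% of 12134 genes were lower. With no filter as well it had 0 lower and 546 genes, where 0.849% of 24040 genes were lower. With both and without that library, chosen after seeing the data, it had 15 members higher, 3 lower and 3697 genes, where 9.46% of 23886 genes were higher and 6.02% lower. In that fit MX2 (0.35), TRIM22 (0.060), EPSTI1 (1.30) and XAF1 (1.65) turned sign against the fit as labelled, XAF1 already when that library alone was left out (0.44). The same setting gave 36 members higher, 1 lower and 6439 genes for siB3GNT3 in AsPC-1, where 19.4% of 20600 genes were higher and 11.8% lower. The 36 include members of the silent class, from whose calls nothing is read. For siB4GALT5 against siB3GNT3 it gave 6 members higher and 1751 genes, where 4.48% of 20935 genes were higher and 3.89% lower. That comparison had 1 member higher and 179 genes with no filter, where 0.358% of 21244 genes were higher, and 205 genes with the smaller pseudocount and no filter. The cause was not tested. Counting a gene as silent over all AsPC-1 libraries left 5 silent genes, 4 of them expressed in Capan-1. Same-numbered libraries did not deviate together (r of -0.053 to 0.128), so the numbers do not pair them. With the replicate block, siB4GALT5 against siB3GNT3 had 1 member higher and 71 genes, where 0.254% of 10631 genes were higher. The difference between lines then had 7 members lower, where 2.86% of 12134 genes were lower. In siB4GALT5 against siNC alone did each library correlate best with its own number. Of member values not called in either fit, 63 changed sign between settings, the largest of size 0.548. Depth cannot be given from FPKM, which limits what can be said of genes below 1 FPKM.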

Other observations

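Capan-1 siNC replicate 3 was the highest of its group for 37 of the 43 genes, and siB4GALT5 replicate 2 was the highest of its group for 27.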
